A study of Mus musculus with 25 samples.

Results

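Whole choroid plexus of 5XFAD mice treated with anti-PD-1 was set against cells of the CD11b+CD45-low gate, the microglia gate, sorted from brains of 5XFAD mice treated with the same antibody. The comparison took 11 of the 25 libraries of the series, chosen by their labels: 5 of choroid plexus and 6 of the CD45low gate, 3 at D14 and 3 at D7. 5XFAD mice carry transgenes of familial Alzheimer's disease, through which amyloid builds up in the brain, and PD-1 is an inhibitory receptor of T cells. Both groups share strain and antibody and differ in tissue, since mice were perfused with saline and the plexus was then dissected from the ventricles and used whole, while the brain cells were sorted. The labels give the plexus libraries no time, do not state from which event the days D7 and D14 run, and do not say whether libraries came from separate or pooled animals, so that replicates may be technical. Letters and numbers in the titles of the plexus libraries are not explained there. The letters served to split the libraries as an alternative. They were also a covariate in the tests between anti-PD-1 and IgG plexus, except where the replicate number was a block. Every sorted library came from treated mice, so that no untreated microglia stand beside these values. For the plexus, 5 libraries after IgG and 4 without treatment, both of 5XFAD mice, served as controls. Another 5 libraries, of the CD11b+CD45-high gate and titled mono, were read for levels of single genes and lists. They also entered the tests of D14 against D7 in the CD45low gate, where they shared in the filter and the estimate of spread, except where the replicate number was a block.

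The choroid plexus is a vascular fold of the ventricle wall covered by a ciliated epithelium that secretes cerebrospinal fluid, and it forms a barrier between blood and brain through which leukocytes can enter. Its epithelium pumps ions and bicarbonate, carries vitamins and hormones, and lies on a stroma of fibroblasts, leaky capillaries and macrophages. Microglia are the resident macrophages of the brain parenchyma, which depend on the receptor CSF1R, survey tissue through purine and chemokine receptors and take up debris, amyloid among it.

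Levels are scaled reads, that is the authors' reads per gene scaled to a library total of 10000000, from libraries that read each transcript near its 3′ end. Over the genes compared, these values summed to 4854577 to 5362447 in an anti-PD-1 plexus library and 6110489 to 6394447 in a CD45low library. The share of the total on these genes thus differed between the groups, and this enters every ratio. The anti-PD-1 plexus libraries held 1082379 to 1671084 reads on genes and the CD45low libraries 728521 to 1229294. Where 3 reads set the limit of a count of 0, a gene at 0 may still have been present at up to 8.82 to 13.5 scaled reads in a plexus library and 15.2 to 26.3 in a CD45low library, for counting error alone. The groups are in separate tables made from separate library batches, so tissue and batch cannot be told apart and no p-value is given between them. A difference was called large where the mean of one group was at least 16 times that of the other, where the ranges of the libraries did not overlap and where one mean reached 50 scaled reads, with a mean under 3 reads over its group raised to that level. Log2 ratios are plexus over CD45low, with an SE from the spread over libraries, and means are given ± SD over the 5 plexus and the 6 CD45low libraries. A gene that reached 50 scaled reads in only one group had to differ, so counts over the members of a list describe it and test nothing. Across genes, libraries correlated at 0.956 to 0.970 within the plexus, at 0.920 to 0.964 within the CD45low gate and at 0.150 to 0.219 between them (Pearson's r of log2 levels, as a description).

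Some features of the libraries touch the results. For the sorted cells, scaled values stand for reads that the authors' count table of the same cells did not, with more than 2 times as many reads as counts for 536 of 1329 genes of higher CD45low level, while in the plexus the median ratio of reads to counts was 1. Genes are therefore led with below where the difference was large in both kinds of table, and the others are named with that limit. CD45low D7 replicate 3 stood apart by its neutrophil genes, whose summed level was 68900 scaled reads against at most 17430 in the other CD45low libraries. Since the plexus is whole tissue, fewer cells of a type and less RNA per cell cannot be told apart in it.

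Promoters of genes from each side are shown for the motif of a factor of that side. OTX2, a homeobox factor needed for the choroid plexus, binds TAATCC, and PU.1, the factor encoded by Spi1 that macrophages require, binds sites with the core GAGGAAGT. The sequences below, from RefSeq (GRCm38.p6, a later build than the mm9 of the files), are the 250 bases before the start of the transcript in its own direction, and capitals mark the motif on either strand. They belong to genes of high level on each side that held the motif and had a large difference in both kinds of table. Genes of a single chromosome were left out of this choice, so genes of higher level may also hold the motif. Mfrp, a frizzled-related membrane protein (chr9:44101520-44101769, plus strand), and Ace, the angiotensin-converting enzyme (chr11:105967698-105967947, plus strand), were higher in the plexus. C1qc, a subunit of complement C1q (chr4:136892915-136893164, minus strand), and Ptgs1, which encodes cyclooxygenase-1 (chr2:36230176-36230425, plus strand), were higher in the CD45low gate.
Mfrp: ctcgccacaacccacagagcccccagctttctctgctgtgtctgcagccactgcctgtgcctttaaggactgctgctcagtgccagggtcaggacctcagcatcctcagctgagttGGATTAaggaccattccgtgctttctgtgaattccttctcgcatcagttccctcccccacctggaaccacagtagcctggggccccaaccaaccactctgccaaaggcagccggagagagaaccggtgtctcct
Ace: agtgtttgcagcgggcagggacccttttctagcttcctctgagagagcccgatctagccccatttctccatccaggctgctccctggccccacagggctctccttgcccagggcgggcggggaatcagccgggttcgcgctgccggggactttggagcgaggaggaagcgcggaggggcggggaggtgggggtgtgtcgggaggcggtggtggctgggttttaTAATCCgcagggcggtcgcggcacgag
C1qc: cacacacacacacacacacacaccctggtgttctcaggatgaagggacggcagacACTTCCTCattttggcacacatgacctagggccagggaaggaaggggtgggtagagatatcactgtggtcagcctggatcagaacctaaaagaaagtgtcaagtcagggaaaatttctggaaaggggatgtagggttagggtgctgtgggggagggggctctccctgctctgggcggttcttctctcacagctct
Ptgs1: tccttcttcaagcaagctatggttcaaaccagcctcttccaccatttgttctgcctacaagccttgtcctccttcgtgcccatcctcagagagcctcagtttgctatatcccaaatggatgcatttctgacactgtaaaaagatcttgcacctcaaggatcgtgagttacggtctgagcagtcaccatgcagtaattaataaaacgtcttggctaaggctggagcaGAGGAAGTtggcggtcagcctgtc

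The motif began 134 bases before the start in Mfrp and 27 in Ace, and 195 in C1qc and 24 in Ptgs1. Mfrp had 6864, 6991, 9594, 6797 and 8278 scaled reads in the anti-PD-1 choroid plexus libraries, against a lowest of 10.2, a median of 26.1 and a highest of 33 in the CD45low libraries. Ace had 7520, 8007, 8339, 7568 and 6389 scaled reads in the anti-PD-1 choroid plexus libraries, against a lowest of 5.6, a median of 28.1 and a highest of 46.8 in the CD45low libraries. Mfrp overlaps C1qtnf5, so that its 3′ reads may belong to either. C1qc had 71.9, 121, 162, 147 and 309 scaled reads in the anti-PD-1 choroid plexus libraries, against a lowest of 6361, a median of 7470 and a highest of 11590 in the CD45low libraries. Ptgs1 had 18, 29.1, 30.8, 52.9 and 33.4 scaled reads in the anti-PD-1 choroid plexus libraries, against a lowest of 5732, a median of 6067 and a highest of 6477 in the CD45low libraries. No library of one group reached the range of the other for any of these genes, which the rule for a large difference requires. Over all 32851 promoters of the table, GAGGAAGT was found in 802 (2.44%), TAATCC in 2054 (6.25%) and the ciliary RFX motif GTTGCCATG in 211 (0.642%), each on either strand in the same 250 bases. A share over the genes of each side is void, because 711 of 958 plexus genes (74.2%) and 626 of 806 CD45low genes (77.7%) had a promoter in the table. A match is a run of letters and no evidence of binding. Spi1, named after its values were seen, had 4.5, 0, 15.4, 17.6 and 4.18 scaled reads in the anti-PD-1 choroid plexus libraries and a lowest of 1311, a median of 1519 and a highest of 1928 in the CD45low libraries.

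Of 10924 genes counted, 958 (8.77%) were higher in the plexus and 806 (7.38%) higher in the CD45low gate by the size rule in both kinds of table. These shares are the background for each count of list members below. With the scaled tables alone the counts were 965 (8.83%) and 1329 (12.2%), 21.0% in either direction, and with the count tables alone 1046 (9.3%) and 830 (7.38%) of 11253 genes. The split between directions depended on scaling. TMM scaling, which assumes that most genes do not differ, gave 1365 higher in the plexus and 983 in the gate. Scaling to the reads on genes other than Ttr gave 1190 and 1120. This setting, named without Ttr below, also replaced the authors' total by reads on genes, so its shift is not that of Ttr alone. With the authors' scaling but without CD45low D7 replicate 3 the counts were 972 and 1314. The median log2 ratio of all counted genes was -0.86 in the scaled tables, -0.40 in the count tables, 0.06 with TMM and -0.29 without Ttr, and differences below are to be read against it. The 958 plexus genes held 31.5% to 33.1% of the scaled reads of a plexus library and 0.205% to 0.461% of a CD45low library. The 806 gate genes held 0.288% to 0.442% of the reads of a plexus library and 18.6% to 21.3% of a CD45low library. Of the plexus genes 221 had 0 reads over the 6 CD45low libraries, and of the gate genes 76 had 0 reads over the 5 plexus libraries. The median level on the lower side was 1.03% of the plexus level for plexus genes in the gate, and 1.26% of the gate level for gate genes in the plexus.

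**Figure D1:**
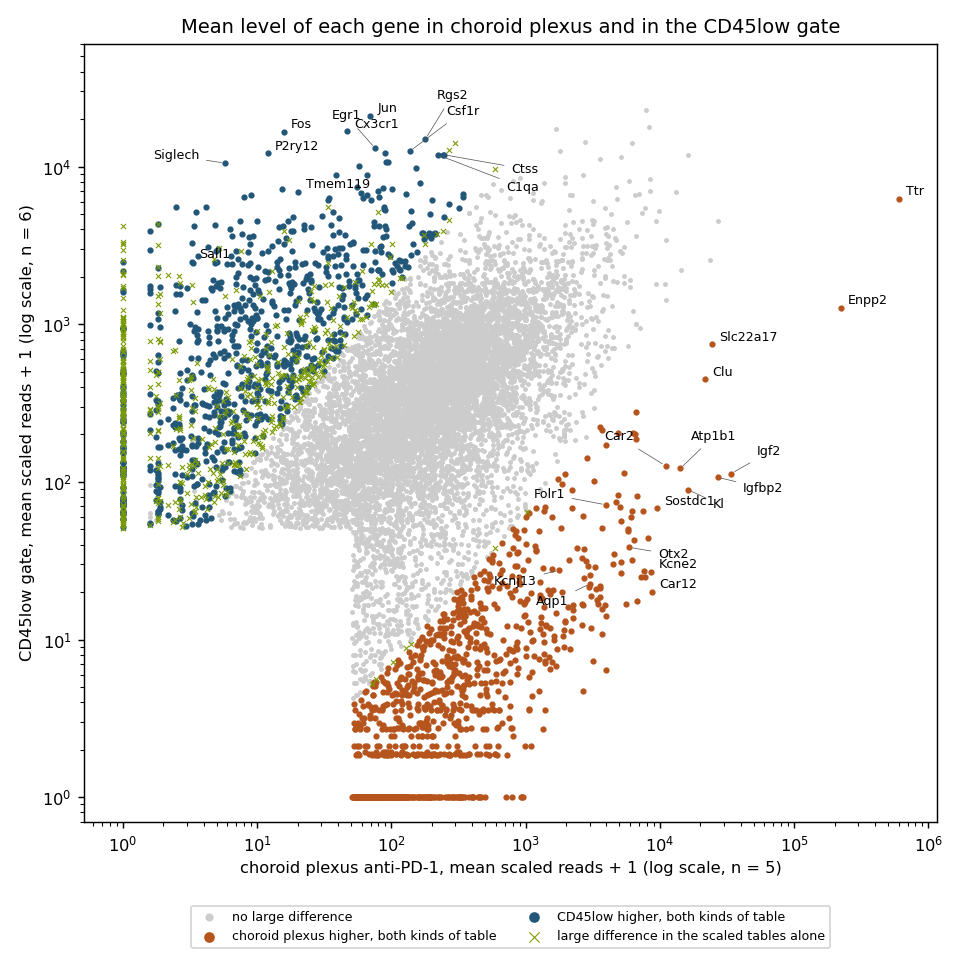
Mean scaled reads of each counted gene, plus 1, in the 5 anti-PD-1 choroid plexus libraries (horizontal, log scale) and the 6 CD45low libraries (vertical, log scale). Orange points are the 958 genes higher in the plexus and blue points the 806 higher in the gate in both kinds of table, crosses those with a large difference in the scaled tables alone, which lie mostly on the CD45low side, and grey points the rest. Ttr lies alone at the right and Jun, Fos and Cx3cr1 at the upper left.

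The defining markers went with the labels in all 11 libraries. Ttr had 595200, 634900, 540700, 598600 and 638400 scaled reads in the anti-PD-1 choroid plexus libraries, against a lowest of 2235, a median of 5743 and a highest of 9680 in the CD45low libraries. This gene encodes transthyretin, the thyroid hormone carrier of cerebrospinal fluid, and took 10.6% to 13.1% of the plexus reads and 0.035% to 0.151% of the CD45low reads. Its log2 ratio was 6.59 ± 0.29 (SE), and 8.39 in the count tables. Kl, which encodes klotho, Folr1, the folate receptor that carries the vitamin across the epithelium, Kcnj13, a potassium channel, Aqp1, the water channel of the apical membrane, and Otx2 were each 56 to 183 times higher in the plexus. Kl had 15590, 17080, 17200, 15730 and 15120 scaled reads in the anti-PD-1 choroid plexus libraries, against a lowest of 0, a median of 54.1 and a highest of 249.7 in the CD45low libraries. Otx2 had 5484, 5767, 6124, 6000 and 6117 scaled reads in the anti-PD-1 choroid plexus libraries, against a lowest of 0, a median of 37.1 and a highest of 72.6 in the CD45low libraries. Folr1 had 3573, 3489, 3459, 3391 and 5846 scaled reads in the anti-PD-1 choroid plexus libraries, against a lowest of 8.764, a median of 46 and a highest of 166 in the CD45low libraries. The lowest plexus library of Kcnj13, at 1274, and of Aqp1, at 2719, lay above the highest CD45low library, at 67.6 and 52.

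Of the microglial markers, P2ry12 had 0, 8.33, 3.85, 17.6 and 25.1 scaled reads in the anti-PD-1 choroid plexus libraries, against a lowest of 9810, a median of 12260 and a highest of 13990 in the CD45low libraries. It encodes the ADP receptor by which microglia sense injury. Tmem119 had 4.5, 25, 19.3, 26.5 and 20.9 scaled reads in the anti-PD-1 choroid plexus libraries, against a lowest of 5690, a median of 6868 and a highest of 8922 in the CD45low libraries. Cx3cr1 had 13.5, 54.1, 42.4, 44.1 and 75.2 scaled reads in the anti-PD-1 choroid plexus libraries, against a lowest of 12720, a median of 16890 and a highest of 20380 in the CD45low libraries. Plexus replicate 1 was lowest in all of these, and no CD45low library came near a plexus library. Sall1 had 4.5, 0, 3.85, 2.94 and 0 scaled reads in the anti-PD-1 choroid plexus libraries, against a lowest of 2322, a median of 2455 and a highest of 2783 in the CD45low libraries. Sall1 is a transcription factor of microglia that other macrophages lack, and its plexus values rest on 3 reads over 5 libraries. Siglech had 4.5, 4.16, 3.85, 2.94 and 8.36 scaled reads in the anti-PD-1 choroid plexus libraries, against a lowest of 5834, a median of 11380 and a highest of 12250 in the CD45low libraries, with CD45low D7 replicate 1 the lowest.

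**Figure D2:**
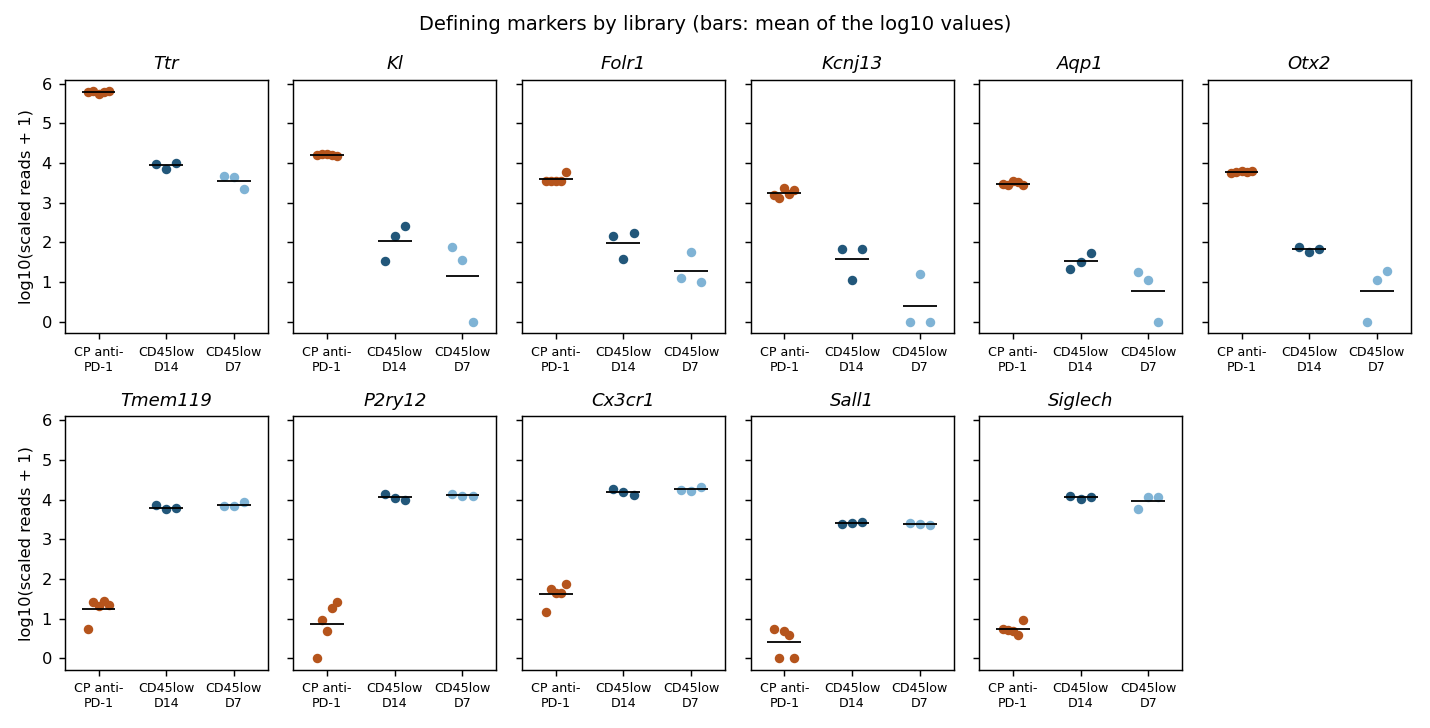
Scaled reads plus 1, on a log10 scale, of 6 choroid plexus markers (upper row) and 5 microglial markers (lower row) in each library, in the order choroid plexus anti-PD-1 (orange, n = 5), CD45low D14 (dark blue, n = 3) and CD45low D7 (light blue, n = 3), with bars at the mean of the log10 values. Every plexus library lies above every CD45low library in the upper row and below them in the lower row, and the D14 libraries lie above those of D7 for Ttr and Otx2.

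Genes of the fluid-secreting epithelium led the plexus side. Of 16 listed secreted proteins, all counted, 14 were higher in the plexus in both kinds of table and 0 in the gate, against a background of 8.77% and 7.38%. The median log2 ratio of the list was 6.87. Enpp2 had 233500, 221200, 221200, 217100 and 222300 scaled reads in the anti-PD-1 choroid plexus libraries, against a lowest of 132, a median of 1021 and a highest of 3079 in the CD45low libraries, which is a log2 ratio of 7.45 ± 0.53 (SE). It encodes autotaxin, the secreted enzyme that makes lysophosphatidic acid. Igf2 had 39890, 28420, 37780, 30200 and 34260 scaled reads in the anti-PD-1 choroid plexus libraries, against a lowest of 0, a median of 94.9 and a highest of 265 in the CD45low libraries. Igfbp2 had 31160, 27650, 24980, 22420 and 28770 scaled reads in the anti-PD-1 choroid plexus libraries, against a lowest of 8.764, a median of 64.1 and a highest of 255 in the CD45low libraries. These are the growth factor IGF2 and its binding protein, both secreted into cerebrospinal fluid, with log2 ratios of 8.25 ± 0.52 and 7.99 ± 0.56 (SE). Clu had 20380, 21200, 24260, 21540 and 20680 scaled reads in the anti-PD-1 choroid plexus libraries, against a lowest of 183, a median of 382 and a highest of 921 in the CD45low libraries. Clu encodes clusterin, a chaperone that binds amyloid-beta, and its ratio of 5.59 was the smallest of the named secreted genes. Sostdc1, a secreted antagonist of BMP and Wnt signals, averaged 9488 ± 1103 scaled reads in the plexus and 67.1 ± 71.4 in the gate. In Igf2, Igfbp2, Kl and Sostdc1 the lowest CD45low library was D7 replicate 3, which held 0 or 8.764 scaled reads.

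Transporters followed the same pattern with fewer members past the size rule. Of 28, all counted, 20 were higher in the plexus in both kinds of table and 0 in the gate, and the median log2 ratio was 5.97. Atp1b1 had 13630, 12370, 17860, 12720 and 14440 scaled reads in the anti-PD-1 choroid plexus libraries, against a lowest of 71, a median of 114 and a highest of 187 in the CD45low libraries. It is the beta subunit of the sodium-potassium pump that drives secretion. Car12 had 7969, 7495, 8300, 9521 and 10660 scaled reads in the anti-PD-1 choroid plexus libraries, against a lowest of 0, a median of 7.87 and a highest of 72.8 in the CD45low libraries. Car12 and Car2 are carbonic anhydrases that supply bicarbonate. Car2 had 10320, 9735, 11200, 11060 and 12730 scaled reads in the anti-PD-1 choroid plexus libraries, against a lowest of 25.4, a median of 113 and a highest of 265 in the CD45low libraries. Slc4a5 had 5974, 5829, 8173, 6930 and 6753 scaled reads in the anti-PD-1 choroid plexus libraries, against a lowest of 0, a median of 10.4 and a highest of 52.8 in the CD45low libraries, where the D7 libraries were all at 0. Slc4a5 is a sodium bicarbonate cotransporter. Kcne2 had 8194, 6678, 10020, 8659 and 9669 scaled reads in the anti-PD-1 choroid plexus libraries, against a lowest of 0, a median of 13.6 and a highest of 88.4 in the CD45low libraries. The log2 ratios of these genes were 6.88 ± 0.23 for Atp1b1, 8.85 ± 0.87 for Car12, 6.45 ± 0.39 for Car2, 8.67 ± 0.76 for Slc4a5 and 8.38 ± 0.78 for Kcne2, a potassium channel subunit. Slc22a17, a receptor of the iron carrier lipocalin-2 and outside the list, had 25440, 24640, 24910, 22740 and 24860 scaled reads in the anti-PD-1 choroid plexus libraries, against a lowest of 577, a median of 734 and a highest of 910.3 in the CD45low libraries.

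Regulators and structural genes of the epithelium were also uneven. Of 11 transcription factors, cadherins and keratins 10 were counted, 8 were higher in the plexus in both kinds of table and 0 in the gate, with a median of 6.84. Beside Otx2, Msx1 had 5214, 4097, 4048, 4953 and 4350 scaled reads in the anti-PD-1 choroid plexus libraries, against a lowest of 0, a median of 23.6 and a highest of 99.1 in the CD45low libraries. Foxj1 had 1793, 1095, 1887, 1694 and 1120 scaled reads in the anti-PD-1 choroid plexus libraries, against a lowest of 0, a median of 10.7 and a highest of 25.8 in the CD45low libraries. Foxj1 is the master regulator of motile cilia and Msx1 a homeobox factor. Krt8, a keratin of simple epithelia, averaged 631 ± 104 scaled reads in the plexus and 6.41 ± 6.14 in the gate. Perp, a desmosomal protein, averaged 2203 ± 164 scaled reads in the plexus and 67.5 ± 46.6 in the gate. Cdh3, which encodes P-cadherin, averaged 456 ± 82.8 scaled reads in the plexus and 0.867 ± 2.12 in the gate. The CD45low mean of Cdh3 rested on 1 read. Motile cilium genes had 13 of 26 members counted and 11 higher in the plexus, with a median of 5.33. Rsph1, of the radial spoke, averaged 430.2 ± 129.5 scaled reads in the plexus and 5 ± 6.36 in the gate. Spag6, of the central pair, averaged 320.3 ± 86.5 scaled reads in the plexus and 2.97 ± 4.82 in the gate. Dnali1, an axonemal dynein light chain, averaged 268 ± 39.1 scaled reads in the plexus and 7.56 ± 14.1 in the gate. The next 2 missed the rule. Ccdc39, which sets the spacing of the axoneme, averaged 189 ± 53.4 scaled reads in the plexus and 70.4 ± 48.6 in the gate. Rfx3, a ciliary transcription factor, averaged 164 ± 44.7 scaled reads in the plexus and 70.9 ± 19.3 in the gate.

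Junction genes lay mostly on the plexus side. Of 14, 13 were counted, 8 were higher in the plexus in both kinds of table and 0 in the gate, and the median was 4.86. Cldn2 had 2751, 2669, 3297, 2630 and 3251 scaled reads in the anti-PD-1 choroid plexus libraries, against a lowest of 0, a median of 23.1 and a highest of 72.8 in the CD45low libraries. It forms the pore that lets sodium and water pass between cells. Cldn1 had 2045, 1932, 1999, 1282 and 2210 scaled reads in the anti-PD-1 choroid plexus libraries, against a lowest of 0, a median of 6.1 and a highest of 31.2 in the CD45low libraries. Cgnl1, which links junctions to the cytoskeleton, averaged 1526 ± 127 scaled reads in the plexus and 5.55 ± 7.17 in the gate. Against the list, Tjp1, the scaffold of tight junctions, averaged 205 ± 13 scaled reads in the plexus and 889 ± 189.8 in the gate. F11r, an adhesion molecule that leukocytes and platelets also carry, averaged 409 ± 46.7 scaled reads in the plexus and 2156 ± 361 in the gate. Both were lower in the plexus. Tjp1 and F11r missed the size rule at log2 ratios of -2.12 ± 0.13 and -2.40 ± 0.12 (SE), and their ranges did not overlap. Over all 10924 counted genes, ranges did not overlap for 5186 higher in the gate and 2349 higher in the plexus.

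Genes of stromal and vascular cells were also on the plexus side. Of 19 fibroblast and matrix genes 14 were counted, with 10 higher in the plexus and 1 in the gate in both kinds of table and a median of 5.73. Dcn had 656, 937, 793, 785 and 752 scaled reads in the anti-PD-1 choroid plexus libraries, against 0 in all 6 CD45low libraries, which is at least 259-fold higher. Dcn encodes the matrix proteoglycan decorin. Mgp, a matrix protein, was also at 0 in all 6 CD45low libraries and at least 309-fold higher in the plexus. Bgn, another small proteoglycan, averaged 999 ± 439 scaled reads in the plexus and 7.78 ± 6.38 in the gate. Col1a2, a chain of type I collagen, averaged 258 ± 85.4 scaled reads in the plexus and 4.37 ± 3.93 in the gate. Pdgfra, a growth factor receptor of fibroblasts, averaged 269.7 ± 86.1 scaled reads in the plexus and 2.2 ± 5.39 in the gate. Against the list, Slc13a3, a dicarboxylate transporter, was higher in the gate and averaged 8.69 ± 12.1 scaled reads in the plexus and 153 ± 56.7 in the gate. Spp1, osteopontin, which activated microglia also make, averaged 278 ± 112 scaled reads in the plexus and 335 ± 219 in the gate. Of 18 endothelial genes 13 were counted and 8 were higher in the plexus, with a median of 4.27. This count was 5 without CD45low D7 replicate 1 and 5 without D14 replicate 2. Plvap, of the diaphragm of fenestrated capillaries, averaged 459 ± 167 scaled reads in the plexus and 16.1 ± 16.2 in the gate. Emcn, a sialomucin of veins and capillaries, averaged 158 ± 58.9 scaled reads in the plexus and 1.46 ± 3.58 in the gate. Pecam1 and Eng, which myeloid cells also express, were lower in the plexus. Pecam1 had 27, 108, 88.6, 118 and 87.8 scaled reads in the anti-PD-1 choroid plexus libraries, against a lowest of 175, a median of 1348 and a highest of 1583 in the CD45low libraries, with D7 replicate 3 the lowest. Eng, a co-receptor of TGF-beta, averaged 255 ± 80.03 scaled reads in the plexus and 1188 ± 225 in the gate. Of 12 mural genes 7 were counted and 3 were higher in the plexus, Rgs5, Myh11 and Notch3. Rgs5, a marker of pericytes, averaged 309.9 ± 117 scaled reads in the plexus and 6.7 ± 14 in the gate. Notch3, a receptor of mural cells, averaged 137 ± 33.1 scaled reads in the plexus and 2.32 ± 3.77 in the gate.

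The gate's side was led by microglial identity genes. Of 29 homeostatic microglia genes, all counted, 22 were higher in the gate in both kinds of table and 0 in the plexus, with a median log2 ratio of -6.88 in the scaled tables and -6.76 in the count tables. Their summed level was 5470 to 7471 scaled reads in the anti-PD-1 choroid plexus libraries and 149800 to 184600 in the CD45low libraries. Selplg, the P-selectin ligand, averaged 37.8 ± 25.8 scaled reads in the plexus and 8808 ± 1546 in the gate. Sparc, a secreted matricellular protein, did not pass the rule. Sparc had 2679, 2619, 2484, 2429 and 3510 scaled reads in the anti-PD-1 choroid plexus libraries, against a lowest of 12110, a median of 14720 and a highest of 16350 in the CD45low libraries.

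Lineage regulators and receptors of growth factors showed 13 of 18 counted genes higher in the gate and 0 in the plexus, with a median of -5.93. Csf1r had 53.9, 137, 169.5, 147 and 176 scaled reads in the anti-PD-1 choroid plexus libraries, against a lowest of 10320, a median of 12290 and a highest of 16160 in the CD45low libraries. CSF1R is the receptor on which microglia depend. Irf8, a transcription factor of myeloid cells, averaged 86.5 ± 39.9 scaled reads in the plexus and 5575 ± 704 in the gate. Cebpa, another, averaged 41 ± 23 scaled reads in the plexus and 2379 ± 584 in the gate. Csf3r, the receptor of granulocyte colony-stimulating factor, averaged 3.99 ± 3.02 scaled reads in the plexus and 2491 ± 379 in the gate. Tgfbr2, the TGF-beta receptor that keeps microglia in their resting state and that most cells carry, missed the rule and averaged 577 ± 45.5 scaled reads in the plexus and 2525 ± 366 in the gate. Of 29 sensing receptors 28 were counted and 23 were higher in the gate in both kinds of table, 0 in the plexus, with a median of -7.18. Trem2 had 0, 0, 19.3, 2.94 and 12.5 scaled reads in the anti-PD-1 choroid plexus libraries, against a lowest of 5128, a median of 6055 and a highest of 9009 in the CD45low libraries. Trem2 binds lipids and amyloid, and it signals through the adaptor Tyrobp. Tyrobp had 8.99, 12.5, 19.3, 5.88 and 25.1 scaled reads in the anti-PD-1 choroid plexus libraries, against a lowest of 5881, a median of 6876 and a highest of 9702 in the CD45low libraries. Fcgr3, an Fc receptor, averaged 33.1 ± 33.4 scaled reads in the plexus and 6305 ± 1043 in the gate. Fcer1g, its signalling chain, averaged 34.5 ± 19.8 scaled reads in the plexus and 4263 ± 1237 in the gate. Itgam, which encodes the CD11b of the sort, averaged 15.8 ± 11.2 scaled reads in the plexus and 4531 ± 451 in the gate. D7 replicate 3 was the highest CD45low library for Trem2, Tyrobp and Csf1r. Of 26 general macrophage genes, all counted, 24 were higher in the gate in both kinds of table and 0 in the plexus. Their summed level was 391 to 1450 scaled reads in the anti-PD-1 choroid plexus libraries and 64870 to 91780 in the CD45low libraries, where the highest CD45low library apart from D7 replicate 3 had 72050. In the CD45high gate the sum was higher, at 130900 to 151900. Laptm5, of the lysosomal membrane, averaged 93.6 ± 41.7 scaled reads in the plexus and 10650 ± 1507 in the gate. Ncf1, of the phagocyte oxidase, averaged 21.3 ± 6.81 scaled reads in the plexus and 4243 ± 375 in the gate. Lcp1, an actin bundler, averaged 44.4 ± 35 scaled reads in the plexus and 3705 ± 295 in the gate. Coro1a, an actin regulator of leukocytes, averaged 0.588 ± 1.31 scaled reads in the plexus and 3921 ± 839 in the gate. Coro1a had 7.62 times as many reads as counts in the CD45low libraries.

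Rapidly induced genes were far higher in the gate. Of 20 immediate early genes 19 were counted and 16 were higher in the gate in both kinds of table, 0 in the plexus, with a median of -6.43. Jun had 40.5, 79.1, 61.6, 76.5 and 83.6 scaled reads in the anti-PD-1 choroid plexus libraries, against a lowest of 19610, a median of 20320 and a highest of 24430 in the CD45low libraries. Fos had 0, 41.6, 0, 23.5 and 8.36 scaled reads in the anti-PD-1 choroid plexus libraries, against a lowest of 15440, a median of 16070 and a highest of 18820 in the CD45low libraries. Egr1 had 22.5, 70.8, 19.3, 206 and 54.3 scaled reads in the anti-PD-1 choroid plexus libraries, against a lowest of 11690, a median of 12690 and a highest of 14720 in the CD45low libraries, with plexus replicate 4 the highest. These encode transcription factors that rise within minutes of a stimulus. Ier2 averaged 54.1 ± 25.5 scaled reads in the plexus and 7469 ± 356 in the gate. Btg2, which slows the cell cycle, averaged 90.8 ± 24.6 scaled reads in the plexus and 10730 ± 1303 in the gate. Klf6, a zinc finger factor, averaged 85.2 ± 35.5 scaled reads in the plexus and 7332 ± 326 in the gate. Rgs2, a regulator of G protein signals outside the list, averaged 178 ± 40.4 scaled reads in the plexus and 14990 ± 959 in the gate. Fos was also high in the CD45high gate, at 15240 ± 2117 (n = 5), and low in IgG and untreated plexus, at 16.2 ± 8.84 (n = 5) and 22.7 ± 9.39 (n = 4). Cell type and sorting cannot be told apart here.

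Genes that microglia raise around amyloid, and lysosomal genes, had medians nearer to that of all genes. Of 24 disease-associated microglia genes 22 were counted, 8 higher in the gate, beside a background of 7.38%, and 0 in the plexus, with a median of -2.06. Apoe had 4666, 4388, 4799, 5844 and 6117 scaled reads in the anti-PD-1 choroid plexus libraries, against a lowest of 10260, a median of 11090 and a highest of 13660 in the CD45low libraries. Its direction turned in the count tables, where the log2 ratio was 1.495 against -1.16, so that no direction is given for it. Ctsd, a lysosomal protease, averaged 16220 ± 1718 scaled reads in the plexus and 11850 ± 1852 in the gate. Timp2, a protease inhibitor, averaged 6995 ± 1021 scaled reads in the plexus and 6711 ± 552 in the gate. Cd9, a tetraspanin, averaged 3152 ± 407 scaled reads in the plexus and 4327 ± 402 in the gate. The ranges of Timp2 overlapped. Of 32 lysosomal genes 31 were counted and 4 were higher in the gate in both kinds of table, beside a background of 7.38%, with a median of -1.72. These were Ctsh, Ctss, Cd68 and Laptm5. Ctss, a cathepsin of phagocytes, averaged 239 ± 130 scaled reads in the plexus and 11940 ± 1587 in the gate. Psap and Atp6v1a lay the other way. Psap, which encodes prosaposin, averaged 13270 ± 1181 scaled reads in the plexus and 6864 ± 995 in the gate. Atp6v1a, a subunit of the proton pump, averaged 4013 ± 191 scaled reads in the plexus and 724 ± 247 in the gate.

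Markers of other cells bear on what each sample held. Neutrophil granule genes were nearly absent from the plexus. Of 14, 11 were counted and 8 were higher in the gate in both kinds of table. Ngp had 8.99, 0, 0, 2.94 and 0 scaled reads in the anti-PD-1 choroid plexus libraries, against a lowest of 1176, a median of 2641 and a highest of 13160 in the CD45low libraries, with D7 replicate 3 the highest. S100a9 had 4.5, 0, 0, 2.94 and 0 scaled reads in the anti-PD-1 choroid plexus libraries, against a lowest of 2284, a median of 3441 and a highest of 16820 in the CD45low libraries. Camp had 0, 0, 0, 0 and 0 scaled reads in the anti-PD-1 choroid plexus libraries, against a lowest of 809.9, a median of 1920 and a highest of 11850 in the CD45low libraries. The list summed to 0 to 18 scaled reads in the anti-PD-1 choroid plexus libraries and 6588 to 68900 in the CD45low libraries, and to 137700 to 242500 in the CD45high gate. In the scaled tables the count was 10 members higher in the gate with D7 replicate 3 and 10 without it. Camp and S100a8 had far more reads than counts in the sorted cells, and their difference was not large in the count tables. The monocyte list summed to 5603 to 7865 scaled reads in the anti-PD-1 choroid plexus libraries and 621 to 2489 in the CD45low libraries, with at most 1058 in CD45low libraries other than D7 replicate 3, and 1 member was higher in each group in both kinds of table, Ccr2, the receptor of CCL2, in the gate and Emb, the adhesion glycoprotein embigin, in the plexus. Emb had 6248, 5571, 7364, 5194 and 6728 scaled reads in the anti-PD-1 choroid plexus libraries, against a lowest of 26.4, a median of 67.1 and a highest of 105 in the CD45low libraries. Most of the plexus sum was thus Emb, whereas 9 of 11 counted members were lower in the plexus, with a median log2 ratio of -3.59. The 1 call on each side stood beside a background of 8.77% in the plexus and 7.38% in the gate. Ly6c2, the Ly6C antigen of blood monocytes, whose copy Ly6c1 is near-identical, averaged 22.9 ± 6.44 scaled reads in the plexus and 276 ± 401 in the gate, with 1087 in D7 replicate 3 against at most 213 elsewhere. Border-associated macrophages live in the plexus, yet their genes were higher in the gate for 9 of 15 counted members in both kinds of table and for 0 in the plexus. The background was 7.38% in the gate and 8.77% in the plexus. With the scaled tables alone 12 members were higher in the gate. The summed level was 1441 to 1768 scaled reads in the anti-PD-1 choroid plexus libraries and 4411 to 7244 in the CD45low libraries. It was higher still in the CD45high gate, at 10250 to 14820. Mrc1, the mannose receptor, averaged 24 ± 14.4 scaled reads in the plexus and 548 ± 255 in the gate. Cbr2, a carbonyl reductase, averaged 15.2 ± 22.1 scaled reads in the plexus and 307 ± 146 in the gate. Dab2, an endocytic adaptor, averaged 1240 ± 68.2 scaled reads in the plexus and 333 ± 105 in the gate, and so made up most of the plexus sum.

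Lymphocyte genes were at or near the floor. Of 15, 1 was counted, Cd79b, a B cell receptor chain that microglia are known to express, which averaged 2.6 ± 3.92 scaled reads in the plexus and 189.6 ± 38 in the gate. Cd4 averaged 4.4 ± 4.46 scaled reads in the plexus and 9.63 ± 11.6 in the gate. Cd8a averaged 1.67 ± 3.74 scaled reads in the plexus and 4.97 ± 4.33 in the gate. Of 12 neuronal genes 2 were counted. Rbfox3, which encodes the nuclear antigen NeuN, averaged 8.41 ± 6.9 scaled reads in the plexus and 79 ± 64.5 in the gate. Camk2a, a kinase of synapses, averaged 2.72 ± 3.78 scaled reads in the plexus and 56.5 ± 38.6 in the gate. Camk2a was the 1 higher in the gate, a call lost without D7 replicate 3, with TMM scaling and without Ttr. Of 11 astrocyte genes 7 were counted. Slc1a3, a glutamate transporter, was higher in the gate. Slc1a3 had 27, 20.8, 15.4, 11.8 and 62.7 scaled reads in the anti-PD-1 choroid plexus libraries, against a lowest of 774, a median of 1183 and a highest of 1352 in the CD45low libraries. Aldh1l1, a folate enzyme of astrocytes, averaged 267 ± 60.9 scaled reads in the plexus and 21.4 ± 15.6 in the gate. Slc1a2, another glutamate transporter, averaged 23.5 ± 21.4 scaled reads in the plexus and 109 ± 71.4 in the gate. Of 11 oligodendrocyte genes 7 were counted. Mag was higher in the gate, and Cldn11 and Mal were higher in the plexus. Mag, of the myelin sheath, averaged 4.05 ± 3.24 scaled reads in the plexus and 371 ± 124 in the gate. Cldn11, a claudin, averaged 68.3 ± 17.8 scaled reads in the plexus and 2.33 ± 3.78 in the gate. Mbp, myelin basic protein, averaged 249.1 ± 36.6 scaled reads in the plexus and 912 ± 410.4 in the gate. Mbp was not past the rule. Haemoglobin genes, which share reads between copies, stood at 98.6 ± 138 scaled reads in the plexus and 30.1 ± 19.6 in the gate for Hbb-b1, and the erythroid list summed to 293 to 1864 scaled reads in the anti-PD-1 choroid plexus libraries and 299 to 999 in the CD45low libraries, highest in plexus replicate 5. Whether RNA of these cells adds to any difference above was not tested.

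Complement genes lay on both sides. Of 20 genes 14 were counted, and the size rule in both kinds of table was met by 4 genes higher in the plexus and 3 in the gate. The background was 8.77% in the plexus and 7.38% in the gate. The C1q subunits were higher in the gate. C1qa had 76.4, 133, 139, 197 and 556 scaled reads in the anti-PD-1 choroid plexus libraries, against a lowest of 10190, a median of 11590 and a highest of 15300 in the CD45low libraries, with plexus replicate 5 the highest of its group and D7 replicate 3 of its own. C1qb and C1qc were at log2 ratios of -6.01 ± 0.45 and -5.59 ± 0.38 (SE). The inhibitors of the list past the rule in both kinds of table were on the plexus side. Serping1 had 117, 325, 443, 276 and 401 scaled reads in the anti-PD-1 choroid plexus libraries, against 0 in all 6 CD45low libraries, so that this gene, which encodes the C1 inhibitor, was at least 103-fold higher. Cd59a had 2265, 1940, 2253, 1921 and 2954 scaled reads in the anti-PD-1 choroid plexus libraries, against a lowest of 0, a median of 10.4 and a highest of 39.6 in the CD45low libraries. CD59 blocks the membrane attack complex, and CD55 decays the convertases. Cd55 averaged 259 ± 43.1 scaled reads in the plexus and 6.62 ± 8.14 in the gate. C1s, a protease of the C1 complex, averaged 109 ± 34 scaled reads in the plexus and 4.31 ± 8.33 in the gate. Cr1l, a membrane regulator, averaged 11.7 ± 3.04 scaled reads in the plexus and 773 ± 136 in the gate, past the rule on the gate side in the scaled tables alone. In the count tables its log2 ratio was -0.43 against -6.04. The median of the list was likewise -3.50 and -0.42.

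Chemokines and their receptors lay mostly in the gate. Of 24, 19 were counted, 14 were higher in the gate and 2 in the plexus in both kinds of table, and the median was -6.67. Ccl3 had 0, 0, 11.6, 0 and 4.18 scaled reads in the anti-PD-1 choroid plexus libraries, against a lowest of 4988, a median of 5548 and a highest of 6065 in the CD45low libraries. Ccl2 had 4.5, 4.16, 0, 20.6 and 12.5 scaled reads in the anti-PD-1 choroid plexus libraries, against a lowest of 1306, a median of 4071 and a highest of 4572 in the CD45low libraries, with D7 replicate 3 the lowest. Ccl4 averaged 0.588 ± 1.31 scaled reads in the plexus and 2978 ± 375 in the gate. Ccl6 averaged 9.14 ± 3.14 scaled reads in the plexus and 2319 ± 371 in the gate. The exceptions were the ligands Cx3cl1 and Cxcl12. Cx3cl1 had 274, 237, 393, 500 and 359 scaled reads in the anti-PD-1 choroid plexus libraries, against a lowest of 5.074, a median of 8.5 and a highest of 35.1 in the CD45low libraries. Cx3cl1, or fractalkine, is the ligand of the Cx3cr1 described above, so that ligand and receptor were on opposite sides. Cxcl12 had 256, 420.5, 431, 329 and 297 scaled reads in the anti-PD-1 choroid plexus libraries, against a lowest of 5.159, a median of 11.8 and a highest of 26.3 in the CD45low libraries. It attracts cells with CXCR4. Of 18 adhesion genes 12 were counted and 4 were higher in the gate, the integrins Itgb2 and Itgam, Selplg and Sirpa, the receptor of CD47. The background in the gate was 7.38%. Vcam1, to which leukocyte integrins bind, missed the rule on the plexus side. Vcam1 had 1955, 2365, 2284, 1288 and 1897 scaled reads in the anti-PD-1 choroid plexus libraries, against a lowest of 119, a median of 137 and a highest of 353 in the CD45low libraries, a log2 ratio of 3.43 ± 0.33 (SE).

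Interferon-gamma, a cytokine of T cells that PD-1 restrains, acts through genes measured in both groups. Of 9 genes of the PD-1 axis 6 were counted, and the receptor chains Ifngr1 and Ifngr2 were the 2 higher in the gate in both kinds of table, beside a background of 7.38%. Ifngr1 had 112, 108, 123, 124 and 159 scaled reads in the anti-PD-1 choroid plexus libraries, against a lowest of 1923, a median of 2400 and a highest of 2657 in the CD45low libraries. Ifngr2 had 80.9, 70.8, 46.2, 97.1 and 96.1 scaled reads in the anti-PD-1 choroid plexus libraries, against a lowest of 1708, a median of 2362 and a highest of 2450 in the CD45low libraries. With TMM scaling neither passed, and without Ttr 1 did. Cd274, which encodes the ligand PD-L1, averaged 21.2 ± 8.11 scaled reads in the plexus and 88.7 ± 31.7 in the gate. Jak1, a kinase of the receptor, averaged 486 ± 50.3 scaled reads in the plexus and 1785 ± 206 in the gate. Of 24 interferon-gamma targets 20 were counted, with 1 higher in the gate in both kinds of table and 0 in the plexus, and a median of -1.86. The background was 7.38% in the gate and 8.77% in the plexus. The 1 was the chemokine Cxcl10. Irgm1, an interferon-inducible GTPase, averaged 253 ± 42.3 scaled reads in the plexus and 991 ± 197 in the gate. Gbp7, a guanylate-binding protein, averaged 179 ± 92.4 scaled reads in the plexus and 962 ± 248 in the gate. Tgtp1, which shares reads with its copy Tgtp2, was higher in the plexus without reaching the rule. Tgtp1 had 252, 246, 312, 435 and 723 scaled reads in the anti-PD-1 choroid plexus libraries, against a lowest of 13.2, a median of 26.9 and a highest of 35.5 in the CD45low libraries, with replicate 5 the highest. Of 10 MHC class II genes 8 were counted and 2 were higher in the gate, H2-Oa and H2-Ob, beside a background of 7.38%. H2-Ob had 4.5, 4.16, 0, 2.94 and 0 scaled reads in the anti-PD-1 choroid plexus libraries, against a lowest of 745, a median of 2876 and a highest of 3350 in the CD45low libraries. H2-Ob encodes a chain that limits peptide loading, and its lowest values were D7 replicates 3 and 1. The presenting chains were closer. H2-Aa had 207, 649.5, 1252, 668 and 1203 scaled reads in the anti-PD-1 choroid plexus libraries, against a lowest of 1066, a median of 1506 and a highest of 3034 in the CD45low libraries, and the ranges overlapped. Cd74 had 144, 242, 389, 474 and 811 scaled reads in the anti-PD-1 choroid plexus libraries, against a lowest of 1532, a median of 1842 and a highest of 2279 in the CD45low libraries. Cd74, the invariant chain, was highest in plexus replicate 5.

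Few of the genes that make, bind or clear amyloid-beta passed the size rule. Of 30, 24 were counted, 2 were higher in the plexus and 1 in the gate in both kinds of table, and the median was -1.13. The background over all counted genes was 8.77% in the plexus and 7.38% in the gate. Those of the plexus were the carriers Ttr and Clu, and that of the gate was Trem2. App had 10020, 9143, 10260, 9477 and 8249 scaled reads in the anti-PD-1 choroid plexus libraries, against a lowest of 1517, a median of 1781 and a highest of 2110 in the CD45low libraries. The 5XFAD strain carries a human App transgene, and how far its reads align to the mouse gene was not tested. App was at a log2 ratio of 2.40 ± 0.08 (SE), below the size rule. Cst3, which encodes cystatin C, averaged 7944 ± 1699 scaled reads in the plexus and 22910 ± 4188 in the gate. Itm2b, a membrane protein that binds APP, averaged 8363 ± 1365 scaled reads in the plexus and 17720 ± 2378 in the gate. Gsn, the actin-severing protein gelsolin, averaged 1037 ± 131 scaled reads in the plexus and 114 ± 68.5 in the gate.

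**Figure D3:**
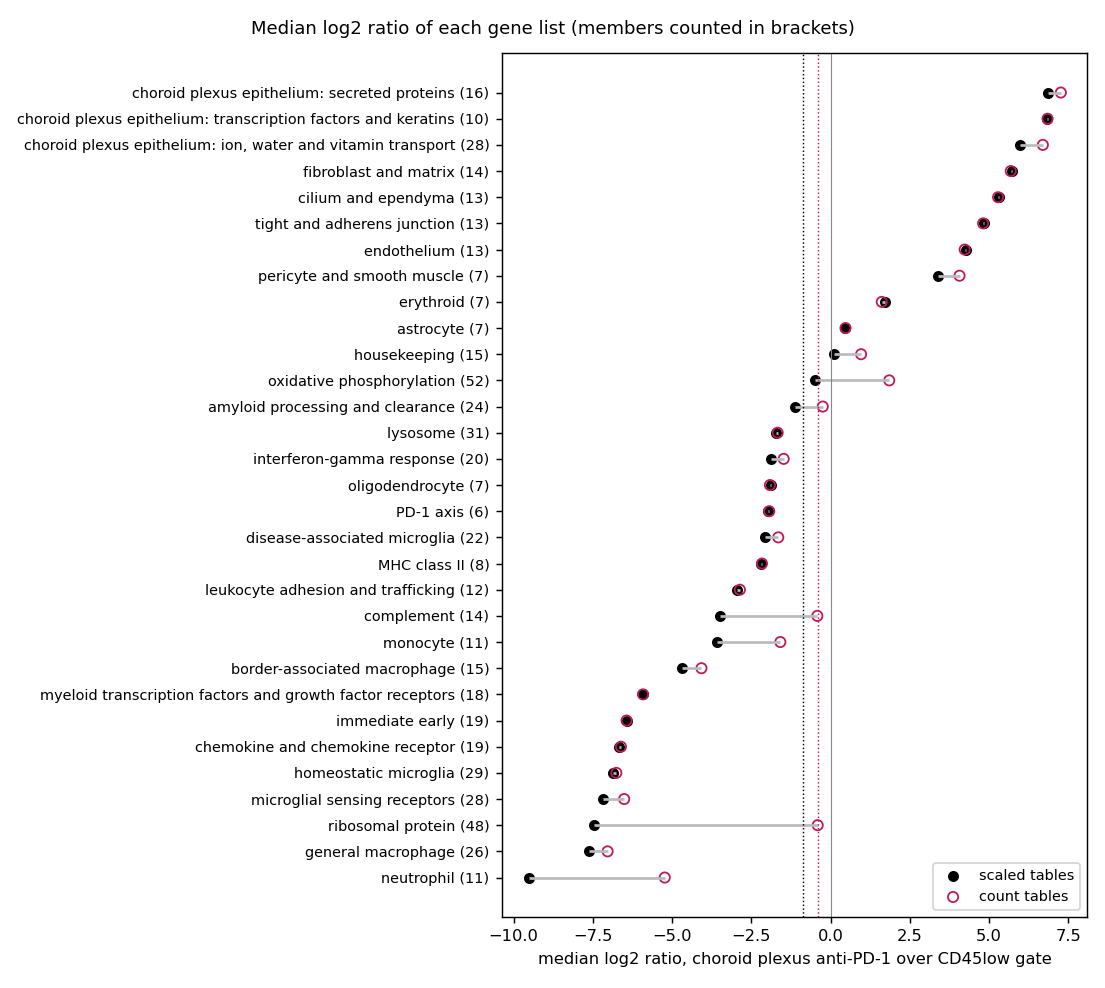
Median log2 ratio, choroid plexus anti-PD-1 over CD45low gate, of each gene list with at least 5 counted members, in the scaled tables (black) and the count tables (open circles), with dotted lines at the median of all counted genes in each kind of table. Epithelial and stromal lists lie at the right and phagocyte lists at the left in both kinds of table, whereas the ribosomal protein, complement, neutrophil, monocyte and oxidative phosphorylation lists shift by over 2 between them.

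Genes that every cell uses showed how far the tables can be compared. Of 48 ribosomal protein genes, all counted, 42 were higher in the gate in the scaled tables and 0 in the count tables, with medians of -7.46 and -0.41, and the CD45low libraries held a median of 31.7 times as many reads as counts for them. Rpl8 was listed at 0 in all 5 plexus libraries of the scaled table. The respiratory chain list, 52 genes, had a median of -0.50 in the scaled tables, 1.85 in the count tables and 0.32 with TMM, so that its direction turned. Neither list is given a direction. Of 15 counted housekeeping genes 2 were higher in the gate in the scaled tables, beside a background of 12.2%, Gnb2l1 among them, and 0 in the count tables. Actb, beta-actin, averaged 6167 ± 902 scaled reads in the plexus and 14060 ± 2627 in the gate. Eef1a1, an elongation factor, averaged 9325 ± 1058 scaled reads in the plexus and 4522 ± 540.1 in the gate. No source used here gives the step of the authors' processing at which the tables part.

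Low levels of each side's genes in the other were not the same in all libraries. Of the 100 plexus genes of highest level called in both kinds of table, the median level as a share of their plexus mean was 0.969%, 0.918% and 1.32% in the CD45low D14 libraries, against 0.364%, 0.369% and 0.291% in the D7 libraries. Every D14 library lay above every D7 library. The difference of 0.729 percentage points had an exact two-sided permutation p = 0.1 (n = 3 and n = 3), the smallest that 3 against 3 libraries allow, and it was 0.649 with the count tables and 0.740 with 50 genes. In the CD45high gate the order was the other way, with 0.339% and 0.198% at D14 against 0.579%, 0.429% and 0.491% at D7, a difference of -0.231 (exact two-sided permutation p = 0.1, n = 2 and n = 3). The gates share numbers in the titles, so their days were permuted together. Over the 5 shared numbers the CD45low minus CD45high difference within a number averaged 0.675 percentage points at D14 and -0.159 at D7, a difference of 0.833 (exact two-sided permutation p = 0.1, n = 2 and n = 3, the smallest that 10 arrangements allow). A difference between the gates in the change with day is therefore not shown at this number of libraries, and the comparison was chosen after the values were seen. Enpp2 had 1539, 1996 and 3079 scaled reads in the D14 libraries of the CD45low gate and 504, 380.5 and 132 in those of D7. Otx2 had 72.6, 56.7 and 67.6 at D14 and 0, 10.2 and 17.5 at D7. In the other direction, the 100 gate genes of highest level had medians of 0.532% to 1.27% of their gate mean in anti-PD-1 plexus, 0.634% to 1.02% in IgG plexus and 0.832% to 1.03% in untreated plexus, ranges that overlapped.

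**Figure D4:**
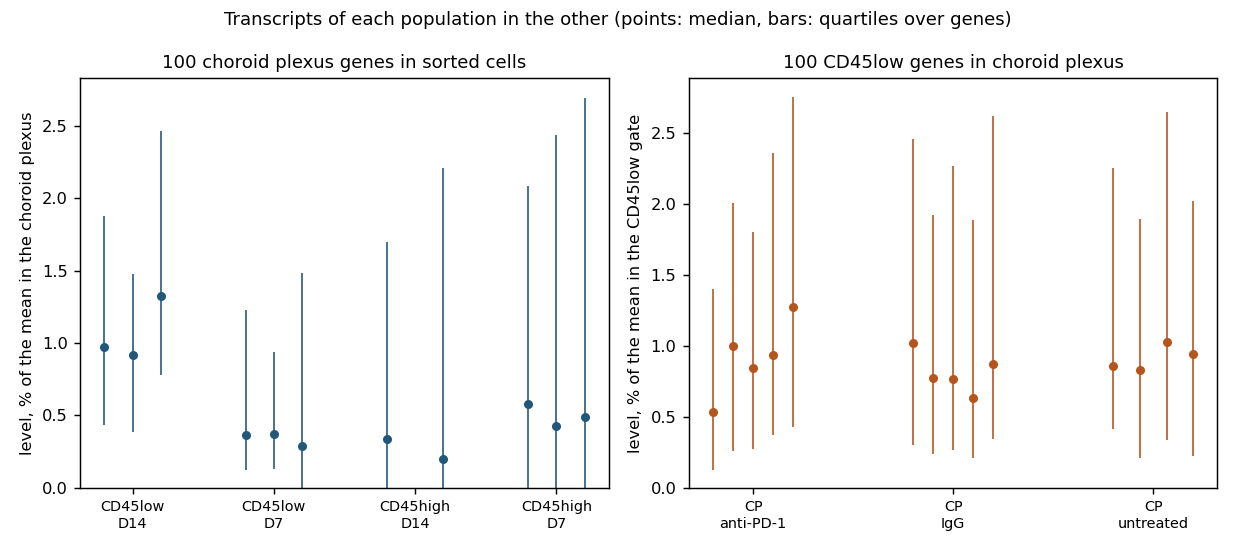
Left, median level of the 100 plexus genes of highest level in each sorted library, in percent of their mean in anti-PD-1 plexus. Right, median level of the 100 CD45low genes of highest level in each plexus library, in percent of their mean in the CD45low gate, for the anti-PD-1, IgG and untreated groups. Points are libraries and bars the quartiles over genes. The 3 CD45low D14 libraries, at 0.918% to 1.32%, lie above the 3 of D7, at 0.291% to 0.369%.

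The plexus side of the comparison was also set against its own controls, with the title letter as a covariate in the tests. Of the 958 plexus genes, 0 passed between anti-PD-1 and IgG plexus and 65 had p under 0.05 before adjustment (limma on log2 of scaled reads plus 10, 0 of 8922 genes or 0.0% called, 366 at an unadjusted p under 0.05). With edgeR 0 genes were called on the count table and 0 on the recovered reads, with 442 and 441 at an unadjusted p under 0.05. The median log2 difference of the 958 genes was 0.03, beside 0.01 over all tested. Replacing anti-PD-1 plexus by IgG plexus gave 971 genes higher in the plexus, 917 of them shared with the 965, and 1304 higher in the gate, and untreated plexus gave 967 and 1309. The interferon-gamma list, of which 0 of 15 tested members passed and 6 had p under 0.05 before adjustment, had a median log2 difference of 0.35 with all 15 above 0. The fibroblast and endothelial lists had medians of -0.39 and -0.27, with 1 of 13 and 1 of 14 above 0, 3 members at an unadjusted p under 0.05 in each and 0 called. Over all tested genes 4773 of 8922 were above 0. Members of a list are not independent, so the counts above 0 describe these lists and test nothing. Listed genes of low p included Igtp, an interferon-inducible GTPase, at 0.90 ± 0.21, Cxcl12 at -0.55 ± 0.15, Bhlhe41, a clock repressor, at -0.73 ± 0.21 and Lpl, the lipoprotein lipase, at -0.92 ± 0.27 (log2 difference ± SE), with adjusted p between 0.702 and 0.928 in limma.

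Between D14 and D7 in the CD45low gate limma called 0 of 10654 genes (0.0%), with 706 at an unadjusted p under 0.05. This fit and those of edgeR also held the CD45high libraries, so their filter and spread rest on both gates. Of the 806 gate genes 0 passed and 82 had p under 0.05 before adjustment, with a median log2 difference of 0.02. Of the 958 plexus genes 133 could be tested there, 0 passed and 28 had p under 0.05 before adjustment, with 85 higher at D14 and 48 lower. Entry to the test required a minimum level in the sorted libraries, so a plexus gene near the floor could enter through its level on a single day. The 133 genes were thus partly chosen by the values compared, and no direction is drawn from the 85 and 48 or from the 28. With edgeR 9 genes were called on the count table and 3 on the recovered reads, Enpp2, Cacna1a and Jdp2, named after their values were seen. Enpp2 was higher at D14 by 2.60 ± 0.38 and Cacna1a, a calcium channel subunit, by 1.99 ± 0.33, while Jdp2, a repressor of AP-1, fell by 1.71 ± 0.29 (log2 ± SE, edgeR adjusted p = 0.0172, 0.0420 and 0.0420). The other 6 on the count table were Anxa1, Chil3, Lcn2, Ltf, Pde2a and Tbc1d9, all with a negative log2 difference. Among listed genes limma gave the lowest p to Cldn2 at 2.72 ± 0.52, Cxcr2, a neutrophil chemokine receptor, at -1.55 ± 0.27, Retnlg at -1.24 ± 0.25, Lcn2 at -2.53 ± 0.53 and Ltf at -2.21 ± 0.48 (log2 difference ± SE, limma adjusted p between 0.189 and 0.22). Apart from Cldn2, these are neutrophil genes, and each was highest in D7 replicate 3. Their values did not overlap between the days, but they were picked for low p between those days, so this adds no support. Without D7 replicate 3 the differences were -1.18 ± 0.23 for Cxcr2, -0.91 ± 0.21 for Retnlg, -1.62 ± 0.31 for Lcn2 and -1.35 ± 0.24 for Ltf (log2 ± SE, limma adjusted p between 0.125 and 0.316). These too are values of genes picked with that library included. In that fit limma called 1 gene, Anxa1, also named after its values were seen, and without D7 replicate 2 it called 17. Where labels do not name separate animals, these p-values measure the spread between libraries, which may be technical.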

How the data were processed

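Bowtie2, HOMER and the build mm9 are named in the submitters' processing notes, with versions not given in the sources used here. The authors deposited, for the plexus and for the sorted cells, a signal table of reads scaled to a total of 10000000 and a table of raw counts. Whole reads were recovered from 100% of the scaled values, at a tolerance of 0.05 reads. Recovered reads equalled the deposited counts for 99.8% of plexus values and 57.5% to 62.2% of CD45low values. The tables were joined on 19752 symbols. Of several plexus rows per symbol (3948 symbols) the row of highest mean was used, not the sum first planned, and 625 rows without a symbol (0.108% of reads) were left out. The large-difference rule is the one given with the levels. Within each table limma 3.58.1 on log2(scaled reads + 10) with Benjamini-Hochberg adjustment was used, and edgeR 4.0.16 as an alternative. Both were tested on simulated data. A fold change on this scale understates that of low genes. Intervals and floors cover counting error only, since reads without molecular identifiers are not independent molecules. Genes with near-identical or overlapping copies are uncertain. Named were the 12 genes of highest level in each direction, up to 6 members of highest level in each list, defining markers, members at least 4-fold against their list and 5 of lowest p per test, of which some are not reported here. Members and lists were chosen with earlier results of these data known.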

Additional observations from a re-analysis of the deposited data

Results flagged for a closer look

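Of 115 groups of values checked for a library far from the rest, 15 held one, where chance sets apart about 1 in 20 groups. Most were of CD45low D7 replicate 3. It was the highest CD45low library in C1qa at 15300 scaled reads, where the next had 11950. It was also the highest in the summed level of the neutrophil list at 68900, where the next library had 17430, and of the monocyte list at 2489, where the next had 1058. The sum of the sensing receptors was 72520 in it and at most 62310 in the others. General macrophage genes summed to 91780, against at most 72050 elsewhere, and complement genes to 44500, against at most 33100. Adhesion genes summed to 32610, against at most 28690, oligodendrocyte genes to 4759, against at most 3922, and ribosomal protein genes to 111300, against at most 87030. These sums share genes and one library and are not independent. This library also had the fewest reads of the CD45low group, 728521.

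In choroid plexus after anti-PD-1, replicate 5 stood apart in C1qa at 556 scaled reads, where the next had 197, in Folr1 at 5846, where the next had 3573, and in the erythroid sum at 1864, where the next had 616. Replicate 4 stood apart in Egr1 at 206, where the next had 70.8. In the CD45low gate Siglech was lowest in D7 replicate 1 at 5834, where the next had 10550, and Car12 was highest in D14 replicate 3 at 72.8, where the next had 25.8.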

How the results depend on the processing

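Of 1428 values recomputed under other settings, 1278 kept their direction and stayed within the limit set for them, 148 moved and 2 reversed. Most of these values came from leaving out 1 library. The limit for counts was wide. At a fold of 8, 1909 genes were higher in the gate, against 1329, and this was within it. So were 740 genes higher in the plexus with the D7 libraries alone, against 965. Numbers of genes higher in the plexus were 613 at a fold of 32 and 540 with a minimum level of 200 scaled reads, against 965. Numbers higher in the gate were 830 with the count tables and 806 in both kinds of table, against 1329. By the count tables, 5 mural genes were higher in the plexus, and in the gate 1 monocyte, 3 complement, 1 interferon-gamma, 0 respiratory chain, 0 ribosomal protein and 0 housekeeping genes. With TMM factors the gate had 7 border-associated macrophage, 0 monocyte, 0 neuronal, 1 interferon-gamma, 0 PD-1 axis and 1 respiratory chain genes. With the reads on genes other than Ttr as the total it had 2 monocyte, 0 neuronal, 2 interferon-gamma, 1 PD-1 axis and 1 respiratory chain genes. The respiratory chain median reversed to 1.85 with the count tables and 0.32 with TMM. The cause was not tested. Leaving out 1 library at a time gave 5 to 8 endothelial and 1 to 2 oligodendrocyte genes higher in the plexus, and 2 to 4 monocyte and 0 to 1 neuronal genes higher in the gate. It gave 902 to 973 genes higher in the plexus and 1314 to 1359 in the gate. With plexus libraries titled M the counts were 940 and 1254, and with those titled F 977 and 1283. The monocyte count was 2 without plexus replicate 2, without D7 replicate 1 and without D7 replicate 3.

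Between D14 and D7 of the CD45low gate, genes called were 1 with a pseudocount of 50, 2 without a filter, 9 with edgeR on counts, 3 with edgeR on recovered reads and 0 to 17 leaving out 1 library, with 17 without D7 replicate 2, 1 without D7 replicate 3 and 1 without D14 replicate 3. With the replicate number as a block 13 were called there and 2 between anti-PD-1 and IgG plexus. The numbers were not taken to pair libraries, since deviations of same-numbered libraries correlated at only 0.0328 to 0.0775 in the gate, where each correlated best with its own number, and at -0.019 to 0.174 in the plexus. Settings named as added after seeing the data were the edgeR fits on recovered reads, genes called in both kinds of table, summed rows (1124 and 1247), IgG and untreated plexus, and those of the residual levels. At 728521 to 1671084 reads a library, a gene under about 10 scaled reads rests on few reads.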
